A study of Drosophila melanogaster with 3 samples.

Results

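The mitochondrial ribosomal protein genes of Drosophila melanogaster were taken as the protein-coding genes whose symbol begins with mRpL or mRpS followed by a digit, in Ensembl release 115 of the dm6 genome. They numbered 73 of 13945 protein-coding genes, 47 for the large subunit of the ribosome and 26 for the small subunit. They were examined in peak lists from chromatin immunoprecipitation and sequencing of the homeodomain protein Zen. The line was transgenic and stably expressed zen with eGFP at its C terminus, and an antibody against GFP was used. Whole embryos of pooled males and females, 0 to 4 h old, gave 3 biological replicates in a single group. Chromatin was sonicated to 200 to 800 bp. All libraries carry the fusion protein, and the labels name 1 line. A transgene can add copies of the zen region, and the promoter that drives the fusion is not given in the sources used here.

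Mitochondria carry their own small genome and translate its few messenger RNAs, which encode subunits of the respiratory chain and the ATP synthase. The ribosomes that do so contain RNA made inside the mitochondrion, but every one of their proteins discussed here is encoded in the nucleus, made in the cytosol and imported. Zen is a dorsal patterning factor of the early embryo that specifies the amnioserosa. Housekeeping genes such as these are active in most cells.

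Peak summits were compared in 3 kinds of list. The authors' reproducible set, cut by the irreproducible discovery rate (IDR), held 7405 summits. The pooled list and each library's own list held 30000 rows, and from each library the strongest 7405 were used unless all rows are named. Summits are given by their rank within a list, with rank 1 for the highest signal score. A gene is called marked when a summit lay within 500 bp of one of its annotated starts. Its territory is the gene body with 2 kb on either side. Peak lists carry no counts of reads, which leaves library depth unknown and counting error without an interval. Embryos without the tagged protein were not analysed here, and Zen binding was therefore not separated from signal that open promoters may give without the tagged protein. There is no second condition and the genes were chosen with earlier results known, so shares are set side by side without a test.

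The DNA under the strongest of these peaks is shown because a homeodomain protein is known to prefer sites with the core TAATTA. The 6 windows of 121 bases are centred on the IDR summit, on the strand of the member gene, from dm6. They belong to the 6 strongest members with an intergenic summit, apart from mRpL41 (rank 14), whose sequence is not shown here and holds no TAATTA within 100 bp of the summit. The coordinates are chr3R:15229476-15229596 (plus strand) for mRpS10, chr2L:13835397-13835517 (minus) for mRpS23, chr2L:4850492-4850612 (minus) for mRpS2, chr2L:4945412-4945532 (minus) for mRpL24, chr2L:18859276-18859396 (minus) for mRpL13 and chr3R:13381953-13382073 (minus) for mRpS21. Capitals mark TAATTA.
mRpS10: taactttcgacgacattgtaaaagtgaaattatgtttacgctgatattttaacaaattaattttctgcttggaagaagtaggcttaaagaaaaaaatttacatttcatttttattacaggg
mRpS23: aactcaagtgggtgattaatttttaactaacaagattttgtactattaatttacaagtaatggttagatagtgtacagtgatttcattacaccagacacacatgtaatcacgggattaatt
mRpS2: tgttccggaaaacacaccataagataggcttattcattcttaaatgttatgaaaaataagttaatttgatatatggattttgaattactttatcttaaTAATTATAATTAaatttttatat
mRpL24: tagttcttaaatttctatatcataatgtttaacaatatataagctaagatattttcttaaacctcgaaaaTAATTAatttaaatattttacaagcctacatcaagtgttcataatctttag
mRpL13: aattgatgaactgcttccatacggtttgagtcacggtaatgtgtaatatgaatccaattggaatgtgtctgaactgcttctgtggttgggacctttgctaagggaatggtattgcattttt
mRpS21: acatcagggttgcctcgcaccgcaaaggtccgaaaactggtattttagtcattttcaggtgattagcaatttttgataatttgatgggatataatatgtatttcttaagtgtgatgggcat
The windows are rich in A and T. In the mRpS2 window the core occurred in 2 adjacent copies, centred 41 and 47 bp downstream of the summit, and in the mRpL24 window in 1 copy centred 13 bp downstream of it. The windows of mRpS10 and mRpS23, which carry the strongest summits of the 6, hold no exact copy of these letters.

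Of the 73 genes, 41 (56.2%) were marked in the IDR set, against 29.3% of all protein-coding genes. Replicates 1, 2 and 3 marked 39, 40 and 41 of them, against 28.3%, 27.7% and 29.6% of all genes. The libraries gave a mean of 54.8 ± 1.37% (SD, n = 3) for the members and 28.5 ± 0.975% for all genes. The groups of library values did not overlap. Each library was read over the same genes, so this spread shows how the peak lists repeat, not how sets of genes vary. A summit lay in the territory of 53 of the 73 genes (72.6%), against 46.8% of all genes. Replicates 1, 2 and 3 gave 53, 50 and 53 genes, against 45.4%, 44.8% and 48.3% of all genes. In the longer pooled list 67 of the 73 genes (91.8%) were marked, against 53.8%.

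These genes are short, with a median of 909 bp against 2166 bp for all protein-coding genes, and a range of 390 to 13391 bp. Among the 4983 protein-coding genes between the 5th and 95th percentile of the members' lengths (543 to 1720 bp), 21.3% were marked and 35.8% had a summit in the territory. The members' 41 and 53 genes therefore exceeded the share of genes of like length by a wider margin than the share of all genes.

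**Figure D1:**
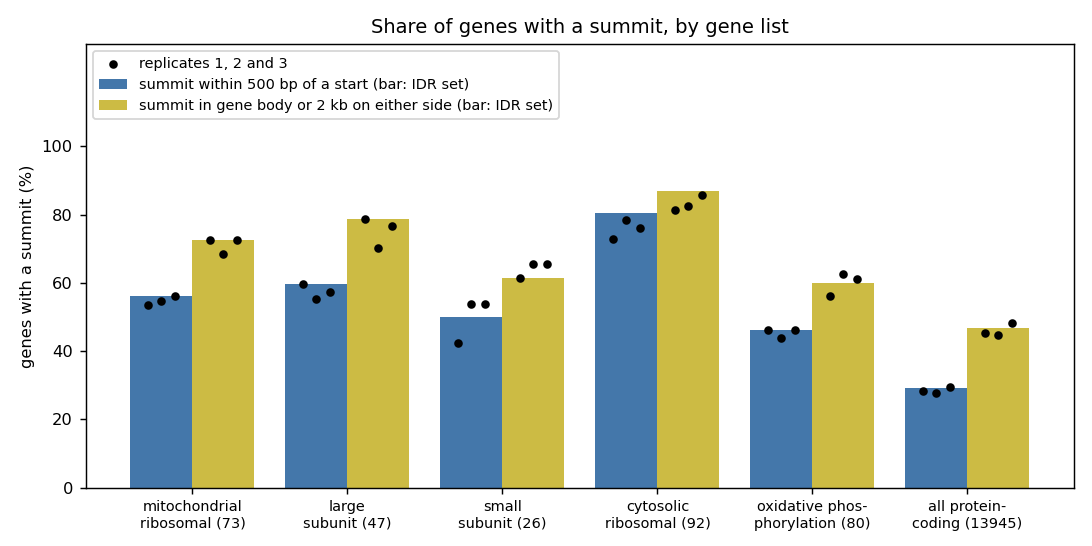
Share of genes (%) with a summit within 500 bp of a start (blue) or in the territory (yellow), by gene list, with the number of genes in brackets. Bars give the IDR set and points give replicates 1, 2 and 3. Mitochondrial ribosomal protein genes stand at 56.2% and 72.6% in the IDR set, between the oxidative phosphorylation genes (46.2% and 60.0%) and the cytosolic ribosomal protein genes (80.4% and 87.0%).

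The large subunit holds the peptidyl transferase centre, where peptide bonds form, and the small subunit reads the messenger RNA. Of the large subunit genes, 28 of 47 (59.6%) were marked in the IDR set, and 28, 26 and 27 in replicates 1, 2 and 3. Of the small subunit genes, 13 of 26 (50%) were marked, and 11, 14 and 14 in the libraries. The library means were 57.4 ± 2.13% and 50 ± 6.66% (SD, n = 3), and the library values of the subunits lay between 55.3% and 59.6% and between 42.3% and 53.8%. Territories held a summit for 37 large subunit genes (78.7%) and 16 small subunit genes (61.5%).

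Some of these proteins descend from bacterial ribosomal proteins and keep their numbers, which run to 36 for the large subunit and to 21 for the small subunit. Higher numbers belong mostly to proteins that mitochondria added. In the IDR set 23 of the 42 genes with bacterial numbers (54.8%) and 18 of the 31 with higher numbers (58.1%) were marked. The library means were 54.8 ± 4.76% and 54.8 ± 3.23% (SD, n = 3). In the large subunit 15 of 28 genes with bacterial numbers and 13 of 19 with higher numbers were marked. In the small subunit these counts were 8 of 14 and 5 of 12, so the classes were ordered differently in the subunits.

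The strength of the summits varied over almost the whole IDR set. The median rank of the 41 strongest start summits was 3095, against 3514 for all marked genes, and 12 of the 41 (29.3%) lay in the strongest 25% of summits, against 26.9% of all marked genes. The medians in the libraries were 2924, 2976 and 2844. At the top, 4 of the 73 genes (5.48%) had a start summit at rank 100 or better, against 0.416% of all protein-coding genes (58 genes). No cytosolic ribosomal protein gene and no oxidative phosphorylation gene had one.

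**Figure D2:**
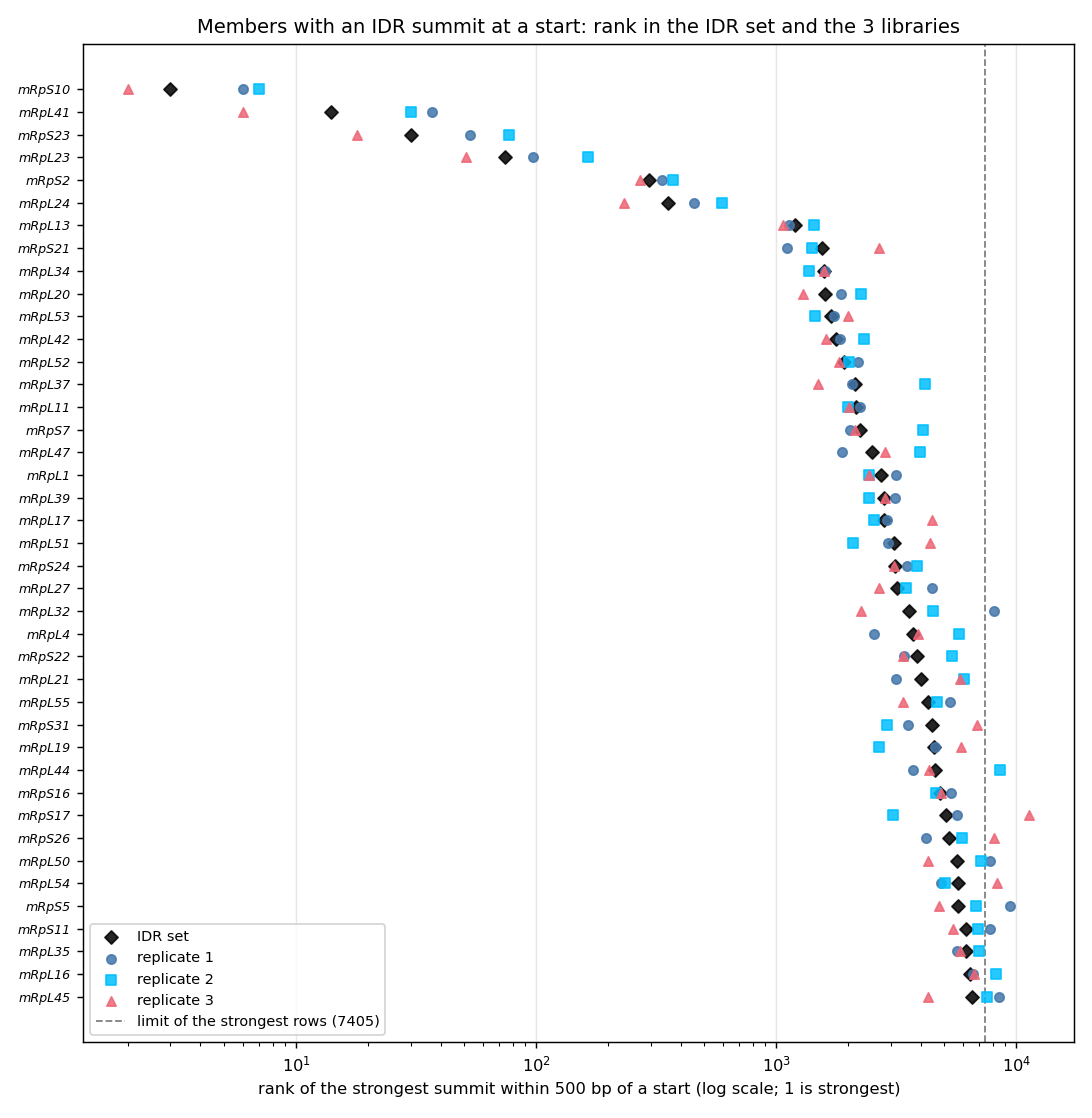
Rank of the strongest summit within 500 bp of a start (log scale, 1 is strongest) for the 41 members marked in the IDR set. Diamonds give the IDR set, and circles, squares and triangles give replicates 1, 2 and 3 over all rows of each library. The dashed line marks rank 7405. There are 6 members at rank 355 or better, none between 355 and 1193, and 35 from 1193 to 6525.

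mRpS10 encodes a small subunit protein of the conserved ribosomal S10 family and had the strongest summit of the group, at rank 3 in the IDR set and at ranks 6, 7 and 2 in replicates 1, 2 and 3. The interval runs along chr3R:15229319-15229741. Its summit lay at -129 bp from the mRpS10 start (negative distances are upstream) and 128 bp from the start of Art3, an arginine methyltransferase gene on the other strand, almost midway between them.

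mRpL41, for a large subunit protein, followed at rank 14, with ranks 37, 30 and 6 in the libraries. Its summit lay at -139 bp from its start, and no other protein-coding start on the opposite strand was within 500 bp. mRpS23, for a small subunit protein, stood at rank 30, with ranks 53, 77 and 18. That summit lay at -385 bp from mRpS23, 107 bp from the start of CenG1A, which encodes a GTPase-activating protein for Arf. Replicate 3 ranked both of these summits highest.

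mRpL23 belongs to a family whose bacterial member sits at the exit of the peptide tunnel. Its summit stood at rank 74, with ranks 97, 164 and 51 in the libraries. In contrast to most of the group it lay downstream, at 66 bp, inside the 5' UTR of mRpL23. mRpS2, for a small subunit protein, was at rank 294 (ranks 335, 371 and 272), with its summit at -133 bp, 89 bp from the start of the vesicle trafficking gene Mon1. mRpL24, whose bacterial counterpart starts large subunit assembly, was at rank 355 (ranks 453, 595 and 232), with its summit at -111 bp and 107 bp from betaggt-I, a gene for a protein prenylation enzyme subunit. For both, replicate 3 gave the highest rank and replicate 2 the lowest.

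After a wide step in rank came mRpL13 at rank 1193, with ranks 1129, 1439 and 1066 in the libraries and a summit at -88 bp. mRpS21 was at rank 1551 and differed more between libraries, with ranks 1114, 1404 and 2670. Its summit lay nearer the start of Droj2, a gene for a DnaJ-type chaperone, at 93 bp.

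mRpL34 was at rank 1580 (ranks 1592, 1373 and 1579), next to the dystroglycan gene Dg. mRpL20 was at rank 1604 (ranks 1869, 2258 and 1300), with a summit 103 bp from Icmt, a carboxyl methyltransferase gene. mRpL53 was at rank 1693 (ranks 1738, 1450 and 1992), with its summit in an intron of AGO1, the Argonaute of the microRNA pathway. These 3 summits were all nearer to the partner gene's start.

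mRpL42 was at rank 1779 (ranks 1846, 2322 and 1619), with a summit 51 bp downstream of its start. Of the 12 strongest members 10 had a start of another gene on the opposite strand within 500 bp, and in 8 that partner's start was nearer to the summit than the member's own.

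At the weak end, mRpL35 was marked at rank 6195, with ranks 5671, 6967 and 5833 in the libraries. mRpL16, whose bacterial counterpart lies near the peptidyl transferase centre, was at rank 6411, with ranks 6596 and 6701 in replicates 1 and 3 and rank 8253 over all rows of replicate 2. mRpL45, whose mammalian counterpart ties the ribosome to the inner membrane, was at rank 6525. It reached rank 4306 in replicate 3 but only 8468 and 7578 over all rows of replicates 1 and 2. These weakest marks thus did not recur evenly.

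Of the 41 marked genes, 31 (75.6%) were marked in every library, against 71.3% of all genes marked in the IDR set. The other 10 were missing from the strongest rows of at least 1 library, 5 from replicate 1, 3 from replicate 2 and 3 from replicate 3, mRpL45 being missing from replicates 1 and 2. In replicate 1 the missing start summits were found further down, over all rows of the library. mRpL32, at rank 3591 in the IDR set, had rank 8055 there and ranks 4518 and 2254 in replicates 2 and 3. mRpL50 (rank 5667) had rank 7771 there, and 7102 and 4288 in the others. mRpS5, of a family that binds messenger RNA near the entry of its channel in bacteria (rank 5741), had 9438, against 6802 and 4772. mRpS11 (rank 6179) had 7763, against 6930 and 5445. In each of these genes replicate 3 gave the best rank.

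In replicate 2 the missing summit of mRpL44, a gene for a protein with a ribonuclease III-like fold (rank 4584), stood at rank 8556, against 3703 and 4349 in replicates 1 and 3. In replicate 3 it was mRpS17 (rank 5125) that stood at 11350, against 5658 and 3062 in replicates 1 and 2. There mRpS26 (rank 5240) had 8057, against 4196 and 5950, and mRpL54 (rank 5700) had 8321, against 4857 and 5051. All 10 therefore had a start summit beyond rank 7405 in the library that missed them.

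Where both library ranks and positions are asked for, 29 of the 41 summits had a summit within 100 bp in the strongest rows of all 3 libraries. Replicates 1, 2 and 3 matched 34, 38 and 37 of them. This match was not counted for all marked genes, so no background share stands beside it. Replicate 3 gave the best of the 3 ranks for 16 of the 31 members marked in every library (51.6%), against 52.2% of all such genes. In the strongest 25% it did so for 9 of 12 (75%) against 67.8%. This leaning of replicate 3 is therefore close to that of genes at large.

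In 12 members a summit lay in the territory but not at a start, 9 of them large subunit genes and 3 small subunit genes. Each of these summits was 1069 to 3194 bp from the member's start and nearer to the start of another gene, 15 to 522 bp away. The strongest was at mRpL40, at rank 367 and at ranks 444, 538 and 258 in the libraries, 81 bp from the start of Irbp, a DNA repair gene. mRpL28 had rank 533 (661, 650 and 389), with the summit 142 bp from CG3792. mRpL46 had rank 934 (1273, 949 and 770), with the summit 85 bp from PolD2, a DNA polymerase subunit gene. These summits were strong in every library, but they sat at neighbouring genes. Territory and start shares were 72.6% and 56.2% for members and 46.8% and 29.3% for all protein-coding genes. A summit in the territory alone was therefore about as frequent in members as in genes at large.

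The territory ranks of mRpS6 and mRpL18 were 2064 and 2073. In replicates 1, 2 and 3 mRpS6 had ranks 1434, 1194 and 3797, and mRpL18 had 2714, 3361 and 1568. mRpL9 was at rank 3365 (3844, 4600 and 2207). The genes for the proteins whose bacterial counterparts build the surroundings of the peptidyl transferase centre, mRpL3 and mRpL2, were at ranks 3758 (4425, 3351 and 3551) and 4517 (5585, 4248 and 3589). Each of these genes had a territory summit in all 3 libraries.

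mRpS18B was at rank 4883 (4969, 6642 and 3278) and its paralog mRpS18A at 6166 (6544, 5254 and 6982). mRpL30 was at rank 6783, with ranks 6458 and 6502 in replicates 1 and 3 and none in replicate 2. mRpL12, whose bacterial counterpart forms the stalk that recruits translation factors, was at rank 7188, with ranks 5708 and 4687 in replicates 1 and 3 and none in replicate 2. Some of these genes were marked at a start in 1 library alone. They were mRpL40 and mRpL12 in replicate 1 (ranks 5563 and 5708) and mRpS18A and mRpS18B in replicate 3 (ranks 6982 and 3278). For mRpL12, mRpS18A and mRpS18B the rank given above for that library is this start summit, not the IDR summit. Within 100 bp of the IDR summit, the strongest rows held no summit for mRpL12 in replicate 1 or for mRpS18A in replicate 3.

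No IDR summit lay in the territory of the remaining 20 genes, 10 of each subunit. They were mRpL10, mRpL14, mRpL15, mRpL22, mRpL33, mRpL36, mRpL38, mRpL43, mRpL48, mRpL49, mRpS9, mRpS14, mRpS18C, mRpS25, mRpS28, mRpS29, mRpS30, mRpS33, mRpS34 and mRpS35. In some libraries a start summit was present for mRpL43 (ranks 6742 and 6955 in replicates 1 and 2), mRpS14 (rank 6497 in replicate 2) and mRpS18C (rank 6937 in replicate 3). The genes at the threshold were mRpS18B, mRpL40, mRpS29, whose human counterpart binds GTP, and mRpL43, whose strongest start summits in the pooled list were at ranks 7493, 7535, 7672 and 7828.

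In the pooled list 15 of these 20 genes (75%) had a start summit, against 27.3% of all protein-coding genes without an IDR summit in the territory. Beyond mRpS29 and mRpL43, mRpS18C stood at rank 8062, mRpL14 at 11063, mRpL10, the stalk base protein gene, at 11369, mRpS28 at 12419 and mRpS14 at 13250. mRpL36 was at 14342, mRpL49 at 14827, mRpL33 at 16599, mRpL15 at 18681, mRpS33 at 18761, mRpL38 at 18993, mRpS30 at 24982 and mRpS35 at 28618. These ranks are spread over the list and form no group near the threshold apart from the 3 strongest. Of the 32 genes not marked in the IDR set, 26 (81.2%) had a start summit further down the pooled list, against 34.6% of all unmarked protein-coding genes. They stood at a median rank of 14341.5 and ranks of 7493 to 28618. The 6 with none were mRpL3, mRpL22, mRpL48, mRpS9, mRpS25 and mRpS34.

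Genes of this family unusually often have another gene's start close by on the opposite strand. Such pairs are called divergent here, and whether they point apart or overlap was not checked. In 53 of the 73 (72.6%) a protein-coding gene on the opposite strand started within 500 bp, against 27.8% of all protein-coding genes, 39.1% of cytosolic ribosomal protein genes and 48.8% of oxidative phosphorylation genes. The gap between the starts was 20 to 499 bp, with a median of 264 bp. Of these 53 genes, 35 (66.0%) were marked, against 55.2% of all divergent protein-coding genes, and the libraries gave 62.3%, 66.0% and 66.0%. Of the other 20 members, 6 (30.0%) were marked, against 19.3% of all genes without such a neighbour, and the libraries gave 30.0%, 25% and 30.0%. The difference from the background was thus smaller within each kind of promoter than over all genes.

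**Figure D3:**
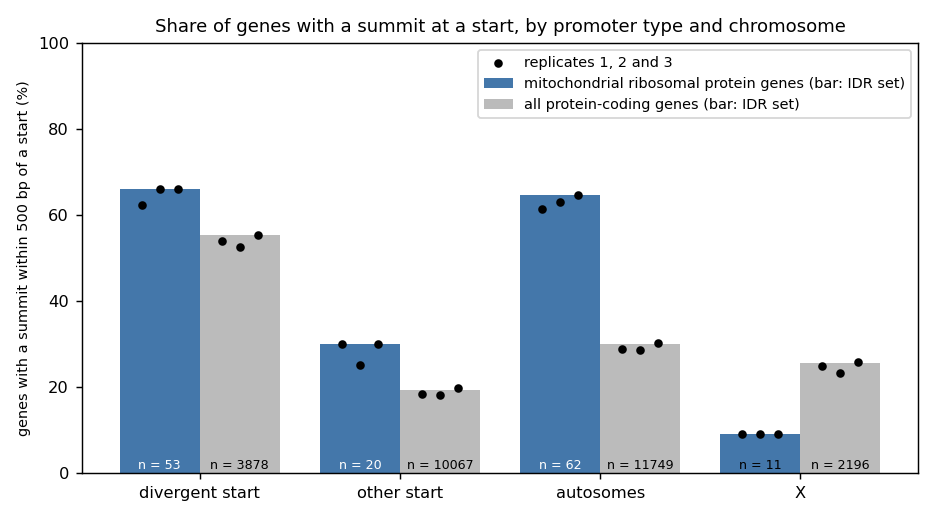
Share of genes (%) with a summit within 500 bp of a start, for members (blue) and all protein-coding genes (grey), by whether another gene starts on the opposite strand within 500 bp and by chromosome. Bars give the IDR set, points give replicates 1, 2 and 3, and n is the number of genes. Members reach 66.0% at divergent starts and 30.0% at other starts, and 64.5% on autosomes against 9.09% on the X.

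A summit at such a promoter cannot be assigned to either gene. In 21 of the 35 marked divergent members the summit was nearer to another gene's start, and in 29 it lay between the starts of the pair. In the 6 marked members without a close divergent neighbour (mRpL41, mRpL13, mRpL4, mRpL19, mRpS5 and mRpL45) the nearest start was always the member's own. Counting only summits whose nearest protein-coding start is the member's left 20 of 73 genes (27.4%), against 21.4% of all genes under the same rule. The same rule for territories also left 20 genes (27.4%), against 27.7% of all genes, so the excess in territories was not seen under it.

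The partners are genes of many kinds. Those nearest to a marked member include Cdk1, the mitotic kinase gene, beside mRpS7, and Prosbeta2, a proteasome subunit gene, beside mRpL39. A few encode mitochondrial proteins, such as ATPsynD of the ATP synthase beside mRpL55 at a gap of 95 bp, the protease gene HtrA2 beside mRpL11 at 126 bp and Mitofilin beside mRpL35 at 192 bp. The ranks of these last summits were 4297 for mRpL55 (5291, 4676 and 3386 in the libraries), 2153 for mRpL11 (2229, 1995 and 2014) and 6195 for mRpL35. These partners were picked for their functions after the values were seen.

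The summits sat just upstream of the starts. Of the 41, 38 (92.7%) were upstream of the nearest annotated start of the member, against 86.7% for all marked genes. The median was -109 bp, against -112 bp, and the members ranged from -385 bp to 66 bp. The 3 downstream summits belong to mRpL23, mRpL42 and mRpS5. By annotation, 33 summits were intergenic, 7 lay in a 5' UTR and 1 in an intron. In 36 of the 41 (87.8%) the summit was also the strongest start summit of another gene, against 54.9% of all marked genes. All 41 summits were distinct, and 40 of the 41 genes had 1 summit at their starts.

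**Figure D4:**
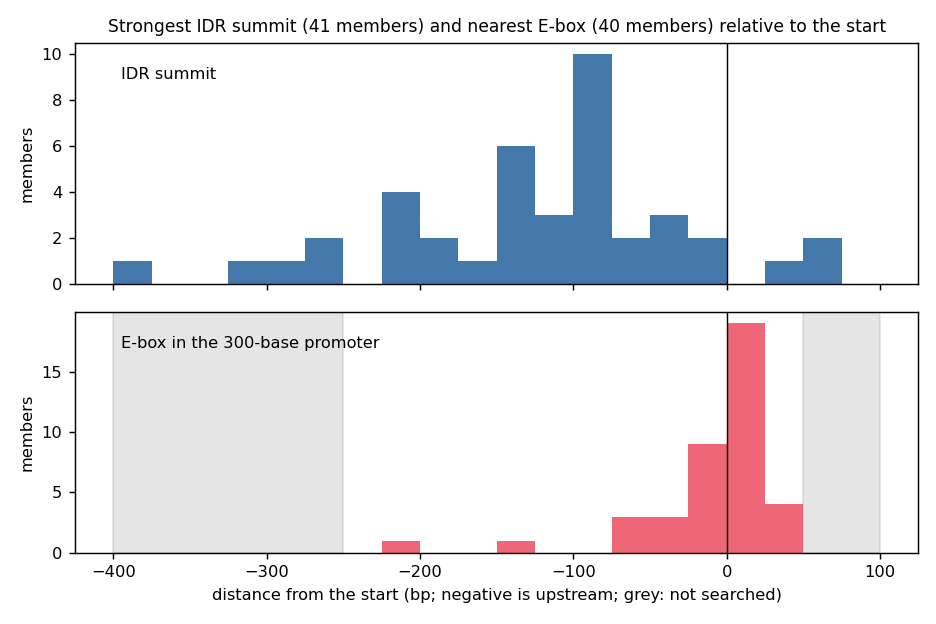
Number of members by distance (bp, negative is upstream) of the strongest IDR summit from the nearest start (upper panel, 41 members) and of the nearest E-box from the start (lower panel, 40 members with 1 in the 300-base promoter; grey was not searched). Summits centre on -109 bp and E-boxes on 7 bp.

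On the autosome arms, marked members numbered 8 of 12 on 2L (against 30.2% of all protein-coding genes on the arm), 8 of 12 on 2R (28.2%), 9 of 17 on 3L (29.8%) and 15 of 21 on 3R (31.3%), and no member lies on chromosome 4. The libraries gave 8, 8 and 9 genes on 2L, 9, 9 and 6 on 2R, 8, 9 and 8 on 3L and 13, 13 and 17 on 3R.

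The X chromosome carried 11 of the members, and 1 of these (9.09%), mRpL16, was marked in the IDR set. On the X, 25.6% of all protein-coding genes were marked. On the autosomes 40 of 62 members (64.5%) were marked, against 30.0% of all autosomal genes. Each library also marked 1 of the 11 X genes, against 61.3%, 62.9% and 64.5% of the autosomal members. Of the X members, 8 had no IDR summit even in the territory and 2, mRpL3 and mRpL30, had one only there. In the pooled list 8 of the 11 (72.7%) were marked, against 56.4% of all X genes. Of the 7 divergent X members 1 was marked, against 45.9% of all divergent X genes. The embryos were of both sexes, so on average X-linked DNA is present in fewer copies than autosomal DNA. Its part in this low share was not tested.

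Sequence around the starts is shown because 40 of the 73 promoters hold the E-box CAGCTG, mostly close to the start. Promoters were taken as the 250 bases before a start and the 50 from it, on dm6. The windows run from 30 bases before the start to 29 after it, on the gene's strand, so that the start is base 31. They come from the members among the 12 strongest and from the members without an IDR summit that have the E-box in this window, apart from mRpL41 and mRpL53, marked genes with the E-box at -6 and 19 bp whose sequence is not shown here. The first 4 genes are marked and the last 6 are not. Coordinates are chr3L:2373675-2373734 (minus) for mRpL23, chr2L:4850390-4850449 (minus) for mRpS2, chr2L:4945332-4945391 (minus) for mRpL24 and chr3R:13381780-13381839 (minus) for mRpS21. They are chrX:4322202-4322261 (minus) for mRpL33, chr2L:1710432-1710491 (plus) for mRpL48, chrX:14582953-14583012 (minus) for mRpS25, chr3R:16436568-16436627 (minus) for mRpS33, chr3L:16348044-16348103 (plus) for mRpS34 and chr3L:2780869-2780928 (plus) for mRpS35. Capitals mark CAGCTG.
mRpL23: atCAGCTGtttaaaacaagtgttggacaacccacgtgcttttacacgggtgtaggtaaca
mRpS2: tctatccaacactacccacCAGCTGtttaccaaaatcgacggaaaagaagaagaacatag
mRpL24: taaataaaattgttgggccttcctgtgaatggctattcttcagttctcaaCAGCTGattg
mRpS21: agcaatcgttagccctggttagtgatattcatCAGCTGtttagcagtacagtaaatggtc
mRpL33: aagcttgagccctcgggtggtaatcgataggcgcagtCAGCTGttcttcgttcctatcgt
mRpL48: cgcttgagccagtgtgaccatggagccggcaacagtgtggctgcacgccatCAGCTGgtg
mRpS25: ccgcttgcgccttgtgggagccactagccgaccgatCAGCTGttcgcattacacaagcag
mRpS33: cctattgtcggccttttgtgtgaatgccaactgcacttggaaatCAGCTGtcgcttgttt
mRpS34: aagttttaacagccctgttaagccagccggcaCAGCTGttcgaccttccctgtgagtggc
mRpS35: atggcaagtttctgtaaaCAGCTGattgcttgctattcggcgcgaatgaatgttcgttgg
The E-box lies between -25 and 24 bases from the start in these genes, which were chosen for holding it in this window. Other members hold it further away, such as mRpL13 (marked) at 41 bp and mRpL14 (not marked) at -69 bp.

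CAGCTG, which reads the same on both strands, occurred in 54.8% of the member promoters against 17.7% of all promoters. Among marked members 22 of 41 (53.7%) held it, and among unmarked members 18 of 32 (56.2%), so the letters did not separate the members by their summits. Large subunit promoters held it in 57.4% and small subunit promoters in 50% of cases, and divergent and other promoters in 54.7% and 55.0%. On the X it was present in 3 of 11 promoters (27.3%) and on the autosomes in 37 of 62 (59.7%), against 16.0% and 18.0% of all promoters there. Cytosolic ribosomal protein promoters held it in 9.78% and oxidative phosphorylation promoters in 23.8% of cases. Another palindrome of the same bases, CTGCAG, was in 4.11% of member promoters and 6.79% of all promoters.

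The E-box also lay close to the start. The copy nearest the start was centred at a median of 7 bp, with quartiles of -14.75 and 19 bp, and in 38 of the 40 promoters (95%) it was within 75 bp of the start. Over all promoters with the E-box the median was -43 bp and 62.6% were that close. The summits lay elsewhere. In the 22 marked members with an E-box the summit was a median of 115 bp from it (4 to 334 bp), in 1 case within 50 bp, and in 19 cases upstream of it.

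Motifs were also counted within 100 bp of the summit in the 41 marked members and at the 3243 IDR summits at protein-coding starts. The homeodomain core TAATTA was found on either strand at 11 summits (26.8%), against 19.8%, and at 25.8 ± 2.97% (SD, n = 3) in the libraries. In the promoters as a whole it was in 20.5% for members and 20.4% for all genes. The 11 members with the core had a median rank of 3095 and the 30 without it a median of 2977. The E-box was within 100 bp of 8 summits (19.5%), against 12.8%, and the libraries gave 17.9%, 25% and 31.7%, a mean of 24.9 ± 6.90% (SD, n = 3).

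Other letters searched, each on either strand, belong to factors of housekeeping promoters or of the early embryo. The DNA replication-related element TATCGATA, which contains the shorter core CGATA, was in 20.5% of member promoters against 9.36% of all, but at 7.32% of the members' summits against 11.4%. The core CGATA, shared by BEAF-32 and Dref sites, was in 58.9% of member promoters against 47.4%, and at 51.2% of summits against 44.5%. Among marked genes it was in 53.7% of member promoters against 58.7%, and among unmarked genes in 65.6% against 42.6%. Windows with CGATA but without TATCGATA were 38.4% of member promoters against 38.0%, and 43.9% of summits against 33.1%. The motif 1 core GGTCACAC was in 11.0% of member promoters against 7.70%, and the motif 7 core CATCNCTA in 11.0% against 6.42%. At the summits these were at 7.32% against 8.05% and at 4.88% against 7.09%. Among marked genes TATCGATA was in 19.5% of member promoters against 17.5%, motif 1 in 12.2% against 13.9% and motif 7 in 12.2% against 12.1%. Among unmarked genes the members' shares were higher for each, with 9.38% against 5.14% for motif 1 and 9.38% against 4.06% for motif 7. Cytosolic ribosomal protein promoters held these in 30.4%, 16.3% and 8.7%, and oxidative phosphorylation promoters in 11.2%, 18.8% and 8.75%, in the same order.

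The core TGCGCA of NRF-1 family sites, which in mammals controls genes for mitochondrial proteins, was in 8.22% of member promoters against 6.96%, and at 7.32% of summits against 5.03%. The Ets core CCGGAAG, a site type of mammalian GA-binding protein, was in none of the 73 and in 1.09% of all promoters. CAGGTA, the letters of the early activator Zelda, was at 4.88% of members' summits against 7.12%, while in promoters it was in 9.59% of members against 6.24% of all. GAGAGAG was at none of them, against 3.55%, and TATAAA at 36.6% against 32.5%. In promoters these were in 1.37% against 5.87% and in 46.6% against 45.8%. The members' summit windows had a median GC content of 34.8% (quartiles 27.9% and 38.8%), against 36.8%, and their promoters 34.7% against 38.0%. The part of base composition in the motif shares was not tested.

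**Figure D5:**
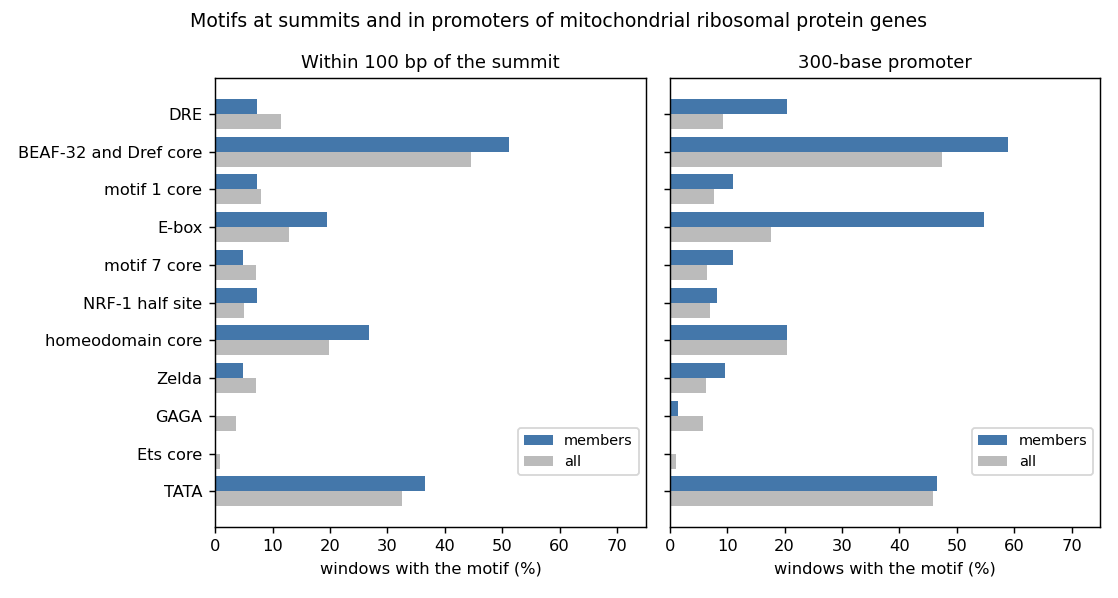
Share of windows (%) that hold each motif within 100 bp of the summit (left, 41 members and 3243 IDR summits at protein-coding starts) and in the 300-base promoter (right, 73 members and 13945 genes). Members are blue and the background grey. For the E-box the members stand at 54.8% against 17.7% in promoters and at 19.5% against 12.8% at summits.

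Genes of the same machinery under other names were few. The protein genes bonsai and tko, for the counterparts of bacterial S15 and S12, were both marked, bonsai at rank 6182 (6858, 6934 and 6109 in the libraries) and tko at rank 2231 (1688, 2617 and 3323). tko lies on the X, in contrast to the low share of X members above. Of 9 mitochondrial translation factor genes 4 (44.4%) were marked, among them mEFTs (rank 3590) and the initiation factor gene mIF2 (rank 4218), and 7 had a summit in the territory. Of 15 mitochondrial tRNA synthetase genes 5 (33.3%) were marked, led by ProRS-m (rank 2536). Of 12 genes for mitochondrial DNA maintenance and transcription 4 (33.3%) were marked, led by mtSSB, the single-stranded DNA binding protein gene, at rank 1051 and in the libraries at 1289, 739 and 1173. Over all protein-coding genes the share was 29.3%, to which the synthetase and DNA maintenance lists were close. No start summit of these genes reached the ranks of the 6 strongest members.

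Of the cytosolic ribosomal protein genes 74 of 92 (80.4%) were marked, with library values of 72.8%, 78.3% and 76.1%, and of the oxidative phosphorylation genes 37 of 80 (46.2%), with 46.2%, 43.8% and 46.2%. The libraries of the mitochondrial ribosomal genes (53.4%, 54.8% and 56.2%) lay between them without overlap. All protein-coding genes stood at 28.3%, 27.7% and 29.6%. Each list holds the same genes in every library, so the spread shows only how the peak lists repeat. Within each kind of promoter the mitochondrial ribosomal and oxidative phosphorylation genes were closer. At divergent starts 66.7% of the oxidative phosphorylation genes (26 of 39) were marked against 66.0% of the members, and at other starts 26.8% (11 of 41) against 30.0%. For the cytosolic list these shares were 91.7% and 73.2%. Median start ranks were 2907 for the cytosolic list and 3571 for the oxidative phosphorylation list, on either side of the members' 3095.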

How the data were processed

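On dm6, the authors made a narrowPeak list per library, a list from all libraries together and an IDR-thresholded set, per the notes in the deposited files. Caller and aligner are not given here. The peaks' signal score, deposited by the authors, served only for ranks within a list, because its scale differs between lists. The IDR set equals the strongest 7405 summits of the pooled list.

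Genes and starts came from Ensembl release 115 and sequence from the dm6 genome. Divergent genes have a protein-coding start on the other strand within 500 bp. Motifs were exact matches on either strand. Python 3.11.15, pandas 2.3.3 and numpy 2.4.6 were used, and the assignment of summits was tested on simulated data. The members, gene lists and motifs were chosen with earlier results of these data known. By the naming rule, library values are given for the 12 strongest and the 3 weakest marked members, for those marked in fewer than 3 libraries and for those marked in the territory only. Members without a summit are named. Replicates are separate biological replicates per the labels. Alternatives covered the threshold, the distances, the gene assignment, the libraries and the motif windows.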

Additional observations from a re-analysis of the deposited data

How the results depend on the processing

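The 41 members marked at a start became 24 (32.9%, against 15.4% of all genes) in the stronger 50% of the IDR set and 20 (27.4% against 21.4%) with the nearest start only. The 53 members with a territory summit became 33 (45.2% against 28.5%) and 20 (27.4% against 27.7%) in the same settings. These counts can only fall, since the first setting admits fewer summits and the second assigns each summit to 1 gene. With the nearest start only, the members fell further than all genes. At starts their share went from 56.2% to 27.4%, against 29.3% to 21.4% for all genes. In territories it went from 72.6% to 27.4%, against 46.8% to 27.7%. The other settings stayed within 1.5 times. The settings without 1 replicate replaced the IDR set by another list. It held the strongest rows of 1 remaining library that had a summit within 100 bp in those of the other. A fall in these counts can therefore come from the change of list. Start counts were 31 to 33 (42.5% to 45.2%, against 21.4% to 22.6% of all genes) without 1 replicate. In a pooled list of 2 times the size the count was 56 (76.7% against 43.4%), and at 200 bp it was 32 (43.8% against 22.6%). It stayed at 41 (56.2%) at 1000 bp, with 1 start per gene and with 1 summit per interval. All genes stood at 33.1%, 27.1% and 29.3% there. Territory counts were 42 to 45 (57.5% to 61.6%, against 36.9% to 38.6% of all genes) without 1 replicate. With flanks of 1000 and 5000 bp they were 43 (58.9% against 40.3%) and 62 (84.9% against 60.7%). In the larger list the count was 67 (91.8% against 62.4%). The 29 summits matched in all libraries became 17 at 50 bp, 31 at 200 bp and 40 over all rows, and 30 to 34 without 1 replicate. The median rank moved in 6 of 8 settings, and some of these changed the size of the list. As reported it was 3095 for members against 3514 for all marked genes. With the nearest start only it was 3940 against 3715, and in the stronger 50% of the IDR set 1847.5 against 1804. There the members no longer had the better median, while in the other settings they kept it. Within 50 bp of the summit, TAATTA was at 19.5% and CAGCTG at 2.44% of the marked members. A narrower window can only lower these shares, and the share over all start summits was not counted at 50 bp. Over all motifs, 20 of 33 settings moved the members' share by at least the SD of the libraries, and 13 did not. No paired analysis was possible because the libraries form a single group. Without read counts, the absence of a summit cannot be told apart from low depth.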
